A study of Mus musculus with 6 samples.

Results

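The sarcomere is the repeating contractile unit of striated muscle, and 40 genes for its parts were followed here out of 39059 genes in the deposited counts. They were chosen as a list of names: actins, myosin heavy and light chains, troponins, tropomyosins, titin, nebulin, myosin binding proteins, M band proteins and Z disc proteins. All 40 names matched 1 gene each. The RNA came from satellite cells, which are skeletal muscle's resident stem cells, taken fresh from hind limbs and sorted by flow cytometry. The mice were on the C57BL/6J background and at postnatal day 19. In 3 libraries the mice were homozygous for the Lmna Δ8-11 allele (Lmna Δ8-11 -/-), named for exons 8 to 11 of Lmna, the gene for A-type lamins of the nuclear envelope. The other 3 libraries came from wild-type mice (Lmna Δ8-11 +/+). The labels give 3 mice for each condition but do not tie a library to its own mouse. A p-value here therefore reflects the spread among libraries, which may be partly technical.

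In a sarcomere, thick filaments of myosin pull on thin filaments of actin. Troponin and tropomyosin on the thin filament set when myosin may bind, in answer to calcium. Thin filaments are anchored in the Z disc and thick filaments are held in register by the M band, while titin spans from one to the other and nebulin runs along the thin filament. Many parts exist as isoforms from separate genes, used in the embryo or around birth, in slow fibres or in fast fibres. Quiescent satellite cells build no sarcomeres. Their descendants switch these genes on when they differentiate into myocytes and fuse into fibres.

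The libraries held 6613636 to 9552751 reads in genes. Lmna itself stood at 421 ± 39.98 CPM (reads of a gene per 1000000 reads in genes, on scaled library totals; mean ± SD, n = 3) in homozygotes and 946 ± 108 CPM in wild type, with a log2 fold change of -1.17 (standard error, SE, 0.14, adjusted p = 0.00100). Every log2 fold change here is homozygous minus wild type, from edgeR's quasi-likelihood test with Benjamini-Hochberg adjustment over 14099 genes. Of the 13 satellite cell markers listed, among them Pax7 and Vcam1, all were tested, 10 were lower in homozygotes and 0 higher, led by Vcam1 (-1.80), Cdh15 (-2.45) and Spry1 (-0.83), with summed levels of 1327 to 1909 CPM against 2476 to 2521 CPM. Over all genes tested, 11.5% were called lower and 9.67% higher. Markers of other cells were present too. Smooth muscle markers (10 genes, among them Acta2 and Myh11) summed to 10922 to 13289.5 CPM in homozygotes and 12562 to 18244 CPM in wild type, and none was at 0. Homozygous replicate 2 was the highest of its genotype for 6 of the 8 sarcomere genes called below, so results are also given without it. Leaving out a library picked by its values moves such differences by construction, so these fits lend them no support. Genes of the Y chromosome had 4498 reads in that library, 3074 and 4831 in wild-type replicates 2 and 3, and 0 to 3 in the other libraries. Each genotype therefore held libraries with many and with almost no such reads, and those came from different mice. With Y-linked reads as a covariate, an alternative added after seeing the data, the sarcomere calls given below kept their counts. Erythroid markers summed to 270.4, 884 and 217 CPM in homozygous replicates 1, 2 and 3 and 897 to 1595 CPM in wild type.

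Most of the sarcomere RNA came from 4 genes. Tpm1, Tpm2, Tpm3 and Myom1 held 86.4 to 93.7% of the reads on the 40 genes in each library. Tpm1, Tpm2 and Tpm3 encode tropomyosins, which non-muscle and smooth muscle cells also make. Myom1 exons overlap those of Myl12a on the opposite strand over 207 of 10459 bases, so Myom1 reads are uncertain. Per kilobase of exon, Tpm2 was the most abundant in wild type at 403 ± 103 CPM per kb, followed by Tpm1 at 197 ± 41.2, Tpm3 at 33.4 ± 3.80 and Myom1 at 29.1 ± 0.458. The order of these 4 was the same in homozygotes. Single libraries of Tpm3 and Myom1 overlapped in both genotypes, so the spread does not separate these neighbours. Next in wild type came genes best known from striated muscle: Acta1 at 20.7 ± 5.67, Actc1 at 15.8 ± 7.43, Tcap at 13.3 ± 3.56, Actn3 at 12.9 ± 3.76 and Mybpc1 at 12.1 ± 0.793 CPM per kb, neighbours whose ranges overlapped. By this level Actc1 ranked 6 of 40 in wild type and 18 in homozygotes, at 1.34 ± 1.96 CPM per kb. The other end of the list was close to empty: 9 genes averaged under 1 CPM in wild type.

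**Figure D1:**
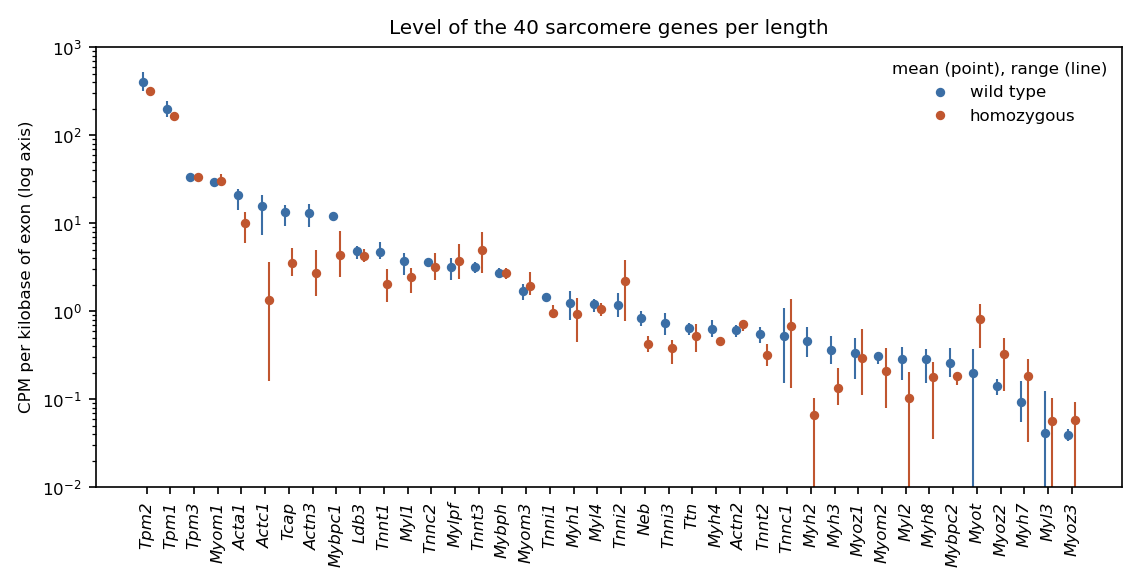
Level of each of the 40 sarcomere genes in CPM per kb of exon on a log axis, ordered by the wild-type mean. For each genotype a point gives the mean and a line the range of its libraries. Tpm1, Tpm2, Tpm3 and Myom1 sit above the rest in all 6 libraries, and Actc1 shows the widest gap between genotype means among tested genes.

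Of the 40 genes, 31 passed the filter on low counts and were tested. In homozygotes 8 were lower (Actc1, Myh2, Actn3, Tcap, Mybpc1, Tnnt1, Acta1 and Neb) and 0 were higher, while over all genes tested 11.5% were called lower and 9.67% higher, 21.1% in all. At an unadjusted p under 0.05 there were 11 of 31, against 35.9% of all genes tested. The DESeq2 Wald test called 7 lower and 0 higher. The median log2 fold change of the 31 was -0.44, against -0.004 over all genes tested, and 23 of the 31 were negative. The genotypes did not overlap for 12 of the 31, against 40.7% of all genes. Actc1 and Myh3 reached the filter's count level in all wild-type libraries but in only 1 homozygous library, and Myh2 in no homozygous library, so the 31 are not a neutral draw from the 40. Without homozygous replicate 2 the calls became 10 lower and 3 higher, without homozygous replicate 1 they became 5 lower, and without wild-type replicate 1 they became 4 lower (Actc1, Actn3, Neb and Tcap), with 0 higher in both of these last fits.

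Grouped by isoform, the embryonic, perinatal and cardiac-type genes (Actc1, Myh3, Myh8, Myl4 and Tnnt2) had 5 of 5 tested, 1 lower and a median log2 fold change of -0.75. The slow genes had 5 of 9 tested, 2 lower and a median of -0.62. The fast genes had 9 of 12 tested, 2 lower and a median of -0.44, with values from -2.71 to 0.86. Genes shared between fibre types had 12 of 13 tested, 3 lower and a median of -0.29. All 5 embryonic, perinatal and cardiac-type genes were negative, as were 6 of 9 fast, 3 of 5 slow and 9 of 12 shared genes. The difference between classes was not tested. Summed over the class, the embryonic, perinatal and cardiac-type genes stood at 8.39, 19.3 and 9.56 CPM in homozygous replicates 1, 2 and 3 and at 48.1, 50.7 and 23.9 CPM in wild type. The fast genes summed to 32.3, 36.8 and 53.8 CPM against 85.3, 84.3 and 55.4 CPM, where homozygous replicate 3 came close to wild-type replicate 3. The slow genes summed to 236, 240 and 232 CPM against 258, 272 and 299 CPM. Single genes carried much of these sums, so they do not describe a whole class. In wild-type replicates 1, 2 and 3, Actc1 alone gave 30.9, 34.0 and 11.8 CPM of the first class. Actn3 gave 39.2, 47.5 and 25.9 CPM of the fast sums, and Tpm3 179, 206 and 225 CPM of the slow sums.

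**Figure D2:**
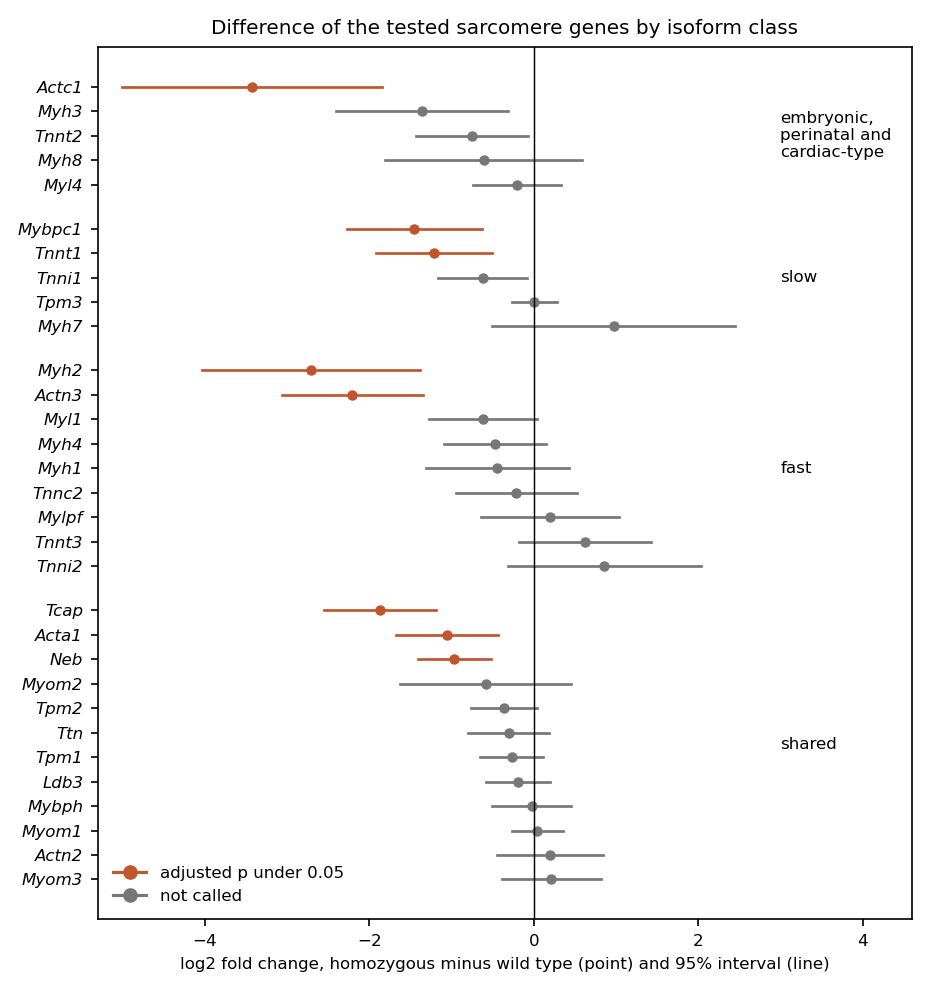
Log2 fold change of the 31 tested sarcomere genes with its 95% interval, homozygous minus wild type, by isoform class. The 8 genes called lower lie between -3.43 and -0.97, and no gene was called higher.

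All 3 genes for actin and nebulin fell. Actc1 encodes cardiac alpha-actin, which skeletal muscle makes before birth and during regeneration, and lies at chr2:114047282-114053548 (GRCm38, minus strand). Actc1 stood at 0.420, 5.83 and 0.262 CPM in homozygous replicates 1, 2 and 3 and at 30.9, 34.0 and 11.8 CPM in wild-type replicates 1, 2 and 3. All wild-type libraries were above all homozygous ones, and homozygous replicate 2 was the highest of its genotype. The change was -3.43 (SE 0.71, adjusted p = 0.00922), and without homozygous replicate 2 it was -6.17, resting on 5 homozygous reads. Acta1, the skeletal alpha-actin of mature fibres at chr8:123891769-123894751 (minus strand), stood at 9.23, 15.8 and 20.7 CPM in homozygotes and 36.2, 37.5 and 21.8 CPM in wild type. The genotypes did not overlap, but homozygous replicate 3 and wild-type replicate 3 nearly met. Acta1 changed by -1.06 (SE 0.28, adjusted p = 0.0248), a call lost when homozygous replicate 1 (adjusted p = 0.0677) or wild-type replicate 1 (0.0895) or 2 (0.0901) was left out. Neb encodes nebulin, a giant protein laid along the thin filament (chr2:52136647-52378474, minus strand). Neb stood at 9.09, 11.1 and 13.9 CPM in homozygotes and 26.4, 22.1 and 18.2 CPM in wild type, with no overlap, and changed by -0.97 (SE 0.20, adjusted p = 0.00897).

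The 2 actin genes carry upstream sequence that can be set beside these values. Serum response factor binds the CArG box, and both actin promoters are textbook examples of genes with such boxes. Upstream sequence was read from RefSeq (GRCm38.p6) from base 250 to base 21 before each start, 230 bases, for the 31 of 40 genes with an entry. The Actc1 window lies within the GENCODE gene, which begins further upstream. Both strands were searched. In both sequences below, read 5′ to 3′ on the minus strand, capitals mark matches to CAGCTG (an E-box of the form CANNTG, which myogenic factors can bind) or to the CArG box by its usual definition.
Acta1, chr8:123894796-123895025: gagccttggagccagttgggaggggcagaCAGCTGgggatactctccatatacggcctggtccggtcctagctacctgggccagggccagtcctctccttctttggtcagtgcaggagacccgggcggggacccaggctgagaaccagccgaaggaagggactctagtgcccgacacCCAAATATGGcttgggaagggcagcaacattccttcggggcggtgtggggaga
Actc1, chr2:114052896-114053125: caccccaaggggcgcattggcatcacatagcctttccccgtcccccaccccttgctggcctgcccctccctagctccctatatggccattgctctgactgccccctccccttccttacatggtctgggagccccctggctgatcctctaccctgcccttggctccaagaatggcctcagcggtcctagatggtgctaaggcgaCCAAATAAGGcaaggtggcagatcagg
A CArG box was matched in 2 of 5 windows of genes called lower (Acta1 and Actc1), in 5 of 32 windows of other sarcomere genes and in 1.41% of 32841 windows of all genes. CAGCTG was matched in 2 of 5 windows (Acta1 and Mybpc1), 10 of 32 windows and 11.8% of all. The MEF2 site was matched in 0 of 5, in 6 of 32 and in 2.75% of all windows. These matches describe letters in a window, and binding was not measured.

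**Figure D3:**
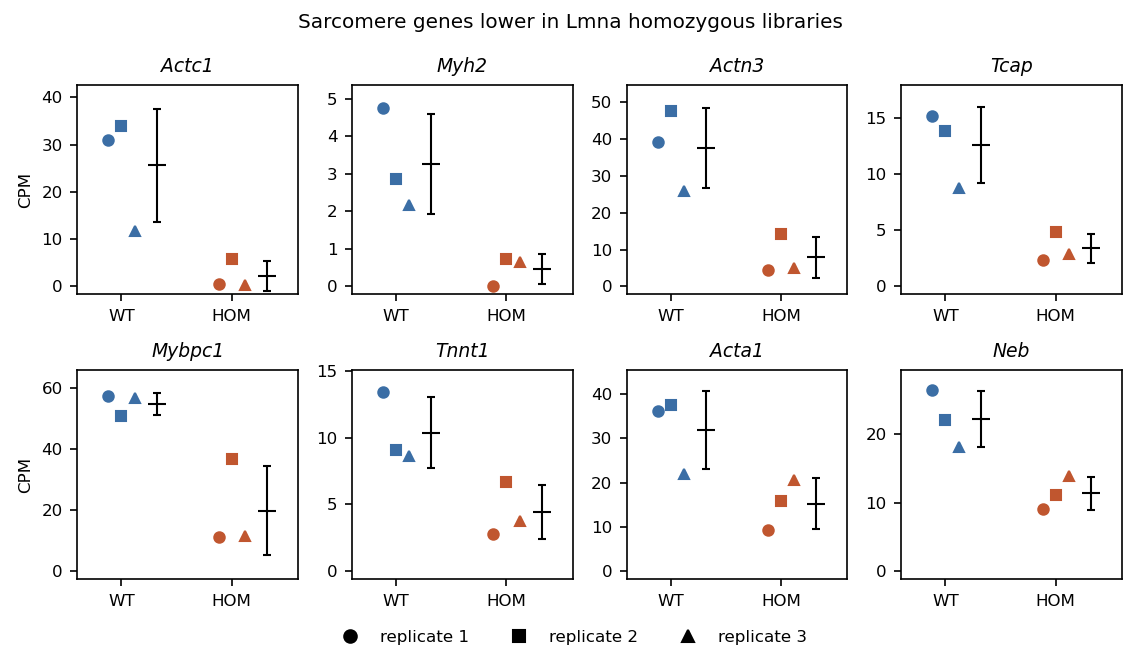
CPM per library of the 8 sarcomere genes called lower, with points by replicate and a bar for the mean ± SD of 3 libraries. In each panel all 3 wild-type points lie above all 3 homozygous points.

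Among thin filament regulators, 1 of 6 tested troponins was called and 0 of 3 tropomyosins. Tnnt1, slow troponin T, ties troponin to tropomyosin in slow fibres (chr7:4504570-4516382, minus strand). Tnnt1 stood at 2.80, 6.68 and 3.80 CPM in homozygotes and 13.4, 9.06 and 8.63 CPM in wild type, with no overlap, and changed by -1.21 (SE 0.32, adjusted p = 0.0242). The call was lost when homozygous replicate 1 (adjusted p = 0.0757) or 3 (0.0796) or wild-type replicate 1 (0.105) was left out. Tnnt2, the cardiac and embryonic troponin T, stood at 2.24, 3.29 and 1.83 CPM in homozygotes and 3.36, 5.09 and 4.19 CPM in wild type. The libraries did not overlap, but the change of -0.75 missed the threshold (adjusted p = 0.109); without homozygous replicate 2 it was -1.03 (0.0406). Tnnt3, fast troponin T, stood at 6.71, 4.24 and 12.4 CPM and 4.28, 5.09 and 5.71 CPM, a difference of 0.62 (adjusted p = 0.240). The 3 troponin T genes therefore had values in both directions, with slow Tnnt1 called and fast Tnnt3 not. For the inhibitory subunit, slow Tnni1 stood at 4.20, 2.97 and 3.14 CPM in homozygotes and 5.09, 4.93 and 5.71 CPM in wild type (-0.62, adjusted p = 0.0955). Fast Tnni2 stood at 2.94, 1.17 and 5.76 CPM and 2.43, 1.27 and 1.52 CPM (0.86, adjusted p = 0.270). Tnni1 did not overlap between genotypes, whereas homozygous replicate 3 was the highest library for Tnni2. Without homozygous replicate 2, Tnnt3 was 0.93 (adjusted p = 0.0312) and Tnni2 1.29 (0.0317), both higher in homozygotes. Leaving out homozygous replicate 3 instead gave 0.11 (adjusted p = 0.833) for Tnnt3 and 0.17 (0.851) for Tnni2, and no other omission called either gene. Tnnc2, the calcium-binding troponin C of fast fibres, differed by -0.21 (adjusted p = 0.681). Its exons overlap those of Ube2c on the opposite strand over 592 of 800 bases, and Ube2c fell by 2.35 on the log2 scale, so its reads are uncertain.

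Tropomyosins lie along actin and cover its myosin sites at rest, and no tropomyosin difference passed the test. Tpm1 stood at 1090.2, 1129.9 and 958 CPM in homozygotes and 1211, 1571 and 1050.1 CPM in wild type, and the genotypes overlapped (-0.27, 95% interval -0.65 to 0.11, adjusted p = 0.284). Tpm2 stood at 941, 929.5 and 874 CPM against 1086, 1507 and 926 CPM (-0.36, interval -0.76 to 0.04, adjusted p = 0.184). Both were highest in wild-type replicate 2, the library where smooth muscle markers also summed highest, and their part in these levels was not tested. Tpm3, the slow-fibre tropomyosin that non-muscle cells also make, stood at 216, 190.0 and 207 CPM against 179, 206 and 225 CPM, a difference of 0.01 (interval -0.27 to 0.29). For Tpm3, 23.2% of its 50-base stretches also occur in another gene, mainly Tpm3-rs7.

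Myosin heavy chain RNA was scarce: the 6 genes together gave 69, 120 and 141 reads in homozygous replicates 1, 2 and 3 and 252, 128 and 111 reads in wild type. Of the 6 genes 1 was called. Myh2, the heavy chain of type IIa fast fibres (chr11:67171027-67197517, plus strand), stood at 0, 0.742 and 0.655 CPM in homozygotes and 4.74, 2.86 and 2.16 CPM in wild type, from 12 reads against 76, and passed the filter through wild type alone. Wild-type libraries were all higher, and the change was -2.71 (SE 0.60, adjusted p = 0.0119; 0.0612 without wild-type replicate 1). Myh3, the embryonic heavy chain, stood at 0.559, 1.38 and 0.524 CPM in homozygotes and 3.12, 1.91 and 1.52 CPM in wild type. Its change of -1.36, with no overlap between genotypes, fell short of the threshold (adjusted p = 0.0655); without homozygous replicate 2 it was -2.00 (0.0174). Myh8, the perinatal chain, and the fast chains Myh1 and Myh4 had values of -0.61, -0.44 and -0.47, and slow Myh7 0.97, none called (adjusted p from 0.2499 to 0.447). These chains share long stretches, from 4.76% of 50-base windows in Myh3 to 22.9% in Myh2 and 25.4% in Myh1, so reads between them are uncertain. On the opposite strand, Myh1 overlaps the antisense gene Myhas over 515 exon bases and Myh2 overlaps 9430073C21Rik over 237. Myh7 overlaps Mhrt and Gm29015 over a summed 626, and reads in these overlaps are uncertain too.

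Of the myosin light chains, which stiffen and tune the myosin neck, 0 of 3 tested were called. Myl4, the embryonic and atrial light chain, stood at 4.76, 5.73 and 4.06 CPM in homozygotes and 6.37, 5.88 and 4.57 CPM in wild type (-0.20, 95% interval -0.74 to 0.33). Mylpf, the fast regulatory light chain, stood at 3.22, 2.44 and 6.15 CPM and 4.28, 3.497 and 2.41 CPM (0.20, interval -0.64 to 1.03). The sign of Mylpf turned without homozygous replicate 3 (-0.28). Myl1, the fast essential light chain, stood at 3.36, 5.30 and 6.41 CPM and 9.37, 8.58 and 5.33 CPM (-0.62, adjusted p = 0.160), and shares 11.7% of its 50-base windows with other genes, mainly Mylf-ps.

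Mybpc1 encodes the slow form of myosin binding protein C, which braces the thick filament (chr10:88518279-88605152, minus strand). It stood at 11.2, 36.6 and 11.5 CPM in homozygotes and 57.3, 50.7 and 56.5 CPM in wild type. All homozygous libraries were lower, and replicate 2 was well above the other two. The change was -1.45 (SE 0.37, adjusted p = 0.0218), but the call was lost with the DESeq2 Wald test (adjusted p = 0.0548) and without each library other than homozygous replicate 2 (0.0558 to 0.0678). Without homozygous replicate 2 the change was -2.27 (adjusted p = 1.69e-06). Mybph, which shares 1162 of its 2329 exon bases with Adora1 on the opposite strand, differed by -0.03 (adjusted p = 0.945). In the M band, 0 of 3 genes were called. Myom1, the myomesin that cross-links myosin, stood at 276, 373 and 293 CPM and 303, 309 and 299.9 CPM (0.04, 95% interval -0.26 to 0.35). Its reads are uncertain because of the overlap with Myl12a given above. Myom2 and Myom3 gave -0.58 and 0.22.

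At the Z disc, 2 of 5 tested genes fell. Actn3, alpha-actinin-3 of fast fibres, cross-links thin filaments (chr19:4861216-4877909, minus strand). Actn3 stood at 4.34, 14.3 and 5.11 CPM in homozygotes and 39.2, 47.5 and 25.9 CPM in wild type, and homozygous replicate 2 was the highest of its genotype but below every wild-type library. The change was -2.20 (SE 0.39, adjusted p = 0.00463), and -2.98 without that library. Actn2, the alpha-actinin of all fibres, stood at 2.24, 2.97 and 2.88 CPM and 2.43, 1.91 and 2.67 CPM, overlapping between genotypes (0.20, adjusted p = 0.650). Tcap encodes telethonin, the cap on titin's amino end (chr11:98383811-98384953, plus strand). Tcap stood at 2.38, 4.88 and 2.88 CPM in homozygotes and 15.2, 13.8 and 8.76 CPM in wild type, with no overlap, and changed by -1.87 (SE 0.31, adjusted p = 0.00357). Its partner Ttn, titin itself, stood at 40.6, 58.2 and 82.6 CPM in homozygotes and 85.8, 76.0 and 62.5 CPM in wild type (-0.31, 95% interval -0.80 to 0.19, adjusted p = 0.352). Ldb3, a Z disc adaptor, differed by -0.19 (adjusted p = 0.459). Actc1, Actn3, Tcap and Neb were called lower under every alternative tried and with each library left out.

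Within pairs of isoforms, the makeup of the RNA also differed between libraries, given here as a description with no test. Actc1 made up 4.35, 27.0 and 1.25% of Actc1 and Acta1 reads in homozygotes and 46.0, 47.6 and 35.1% in wild type. Actn3 made up 66.0, 82.8 and 63.9% of Actn3 and Actn2 reads in homozygotes and 94.2, 96.1 and 90.7% in wild type. Both shares were lower in every homozygous library. Fast Tnnt3 made up 70.6, 38.8 and 76.6% of Tnnt3 and Tnnt1 reads in homozygotes and 24.2, 36.0 and 39.8% in wild type, and fast Tnni2 41.2, 28.2 and 64.7% of Tnni2 and Tnni1 reads against 32.3, 20.5 and 21.1%. Homozygous replicate 2 lay among the wild-type libraries for both troponin shares, while replicates 1 and 3 were above them. Myh2 made up 0, 5.83 and 3.55% of heavy chain reads in homozygotes and 16.3, 14.1 and 15.3% in wild type. The 0 stands on 69 reads, where 3 reads, the limit taken for a count of 0, would be 4.35%. Its 95% Wilson interval reaches 5.27%. The fast chains together made up 87.0, 49.2 and 68.1% against 69.4, 69.5 and 73.0%, spread on both sides of wild type.

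**Figure D4:**
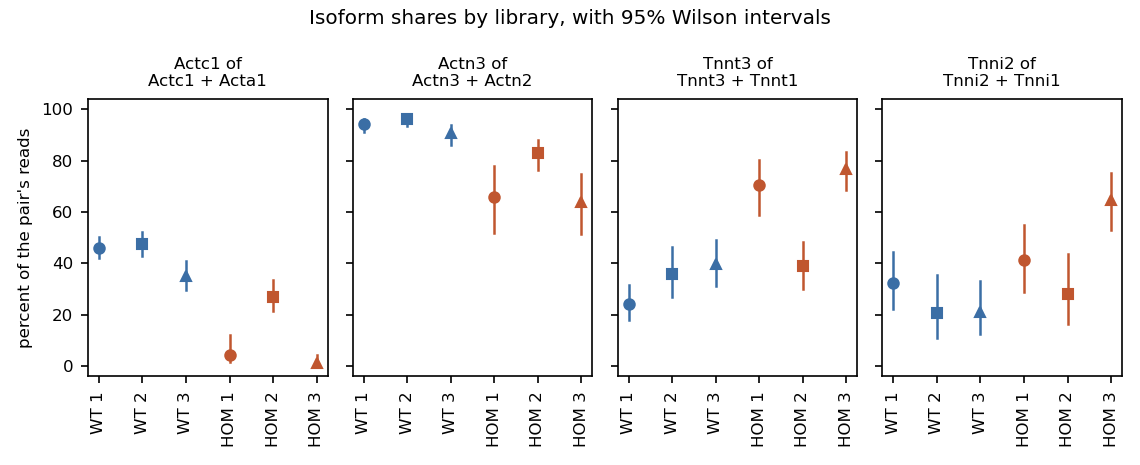
Percent of reads taken by the named isoform in each library, with 95% Wilson intervals that cover counting error only. Actc1 and Actn3 shares are lower in all 3 homozygous libraries, while the fast troponin shares of homozygous replicate 2 fall among wild type.

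The 8 called genes differed in level among libraries of 1 genotype too. Their summed level was 39.4, 96.0 and 58.8 CPM in homozygous replicates 1, 2 and 3 and 223, 218 and 154 CPM in wild type. Homozygous replicate 2 was the highest of its genotype for 6 of the 8. Among the other 23 tested genes it was so for 9 and homozygous replicate 3 for 10. Homozygous replicate 3 was the highest of all 6 libraries for 4 of the 7 fast genes that were not called. Of 12 markers of myogenic differentiation, 2 of them also sarcomere genes of the list (Myh3 and Myl4), 10 were tested, 6 were lower and 0 higher, with a median of -1.27. The shares over all genes tested were 11.5% lower and 9.67% higher. Myog, the factor that starts differentiation, was 1.26, 18.6 and 1.96 CPM in homozygotes and 95.8, 95.5 and 46.3 CPM in wild type, again highest in homozygous replicate 2. Chrna1 and Chrnb1, acetylcholine receptor subunits, changed by -2.64 and -1.19. Mymk, needed for fusion, passed the filter through wild type alone, with 10 homozygous reads against 124. In bulk RNA, fewer cells of a type and less RNA per cell cannot be told apart, and the part of differentiating cells in the sarcomere result was not tested. Of 6 cardiomyocyte markers listed, 1 of them also a sarcomere gene of the list (Tnni3), Nppa and Nkx2-5 had 0 reads. The only 1 tested, Ryr2, stood at 78.1 ± 4.29 CPM in homozygotes and 73.8 ± 0.916 CPM in wild type (mean ± SD, n = 3). Its difference of 0.08 was not called.

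**Figure D5:**
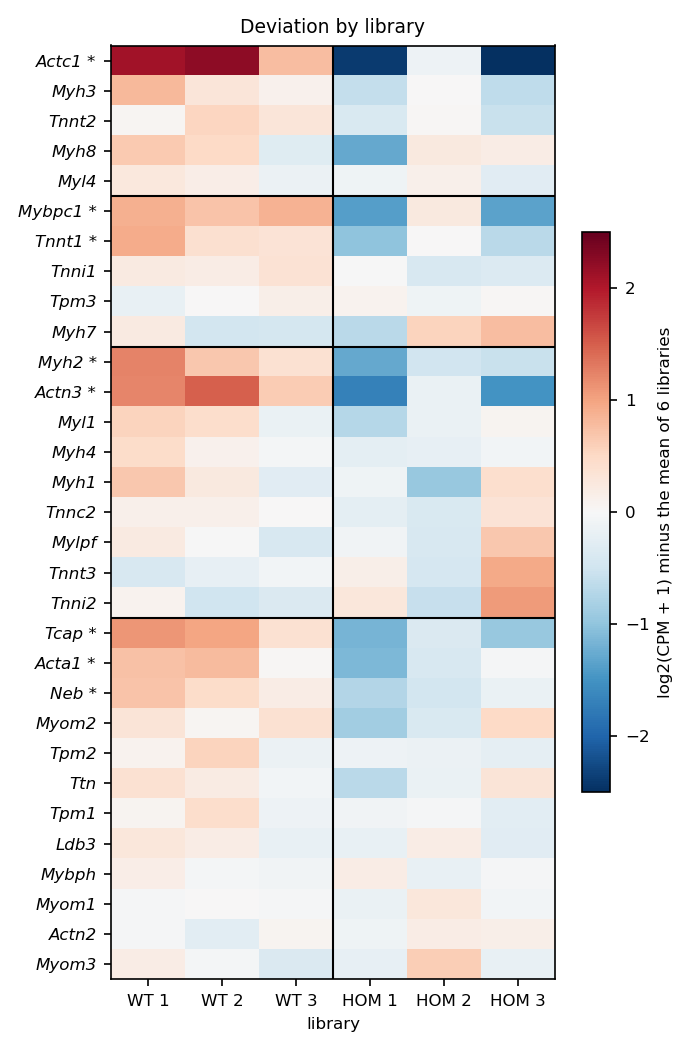
Deviation of each tested sarcomere gene from its mean over 6 libraries, in log2(CPM + 1), by library, with an asterisk for genes called lower. Homozygous replicate 2 is the highest of its genotype for 6 of the 8 called genes.

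The 9 genes under the filter had 5 to 54 reads over 6 libraries. Myot, which encodes myotilin of the Z disc, had 19, 8 and 14 reads in homozygotes and 7, 0 and 4 in wild type, a wild-type to homozygous ratio of pooled reads of 0.285 with a counting interval of 0.132 to 0.564. Tnni3, the cardiac troponin I, had 7, 8 and 4 reads against 17, 7 and 11, a ratio of 1.96 with an interval of 1.09 to 3.62. As CPM the genotypes did not overlap for either gene, in opposite directions. With no filter Myot was called higher (1.83, adjusted p = 0.00971), as it was without homozygous replicate 2 (2.19, 0.0238). It was not called by the DESeq2 Wald test (adjusted p = 0.104) or without wild-type replicate 1 (0.0946), 2 (0.169) or 3 (0.163). Tnni3 was not called with no filter (adjusted p = 0.245) or by the DESeq2 Wald test (0.410). Those edgeR fits with a library left out that tested Tnni3 gave adjusted p from 0.146 to 0.343. Tnni3 exons overlap those of Dnaaf3 on the same strand over 86 of 2063 bases. The other 7, Myl2, Myl3, Tnnc1, Mybpc2, Myoz1, Myoz2 and Myoz3, had 3 to 26 homozygous and 2 to 22 wild-type reads.

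Called sarcomere genes outside the list went both ways. Of 34 further sarcomere genes, 19 were tested, 4 were lower and 1 was higher, against 11.5% lower and 9.67% higher over all genes tested. Of the 19, 15 were negative, with a median of -0.39. Lmod2, a leiomodin that nucleates actin, passed the filter through wild type alone and stood at 0.140, 0.954 and 0.524 CPM in homozygotes and 7.52, 6.36 and 4.83 CPM in wild type, from 14 reads against 143. Xirp1 changed by -0.69. Tmod1, which caps thin filaments at their pointed end, was higher at 24.1 ± 5.64 CPM against 11.8 ± 0.646 CPM (mean ± SD, n = 3), a change of 1.03 (adjusted p = 0.00595).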

How the data were processed

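For each of the 6 libraries the authors deposited whole-number read counts by Ensembl gene. A kit that keeps strand and removes ribosomal RNA was used, per the labels' protocols. The tools listed are HTSeq 0.6.1, STAR 2.5.2b and Trimmomatic 0.32, with genome mm10, per the submitters' processing notes. The sources used here do not give the strand setting or the annotation used in counting. Symbols, positions and exon lengths came from GENCODE release M21 (GRCm38), which matched 38861 of 39059 genes. Reads assigned to no gene, 45.0 to 49.8% of each file, were left out of totals and tests.

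Counts were tested in R 4.3.3 with edgeR 4.0.16: filterByExpr (minimum count 10, minimum total 15), TMM factors, quasi-likelihood test, no covariate, Benjamini-Hochberg adjustment over 14099 genes, threshold 0.05. CPM is reads per 1000000 on TMM-scaled totals, and levels per kb divide it by the union of exons. Intervals are 95%, and those on reads or shares cover counting error only. The script was tested on simulated counts. Alternatives were other scalings, DESeq2 1.42.0, no filter, the replicate number as a block and each library left out; Y-linked reads as a covariate were added after seeing the data.

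The members and lists were chosen with earlier results of these data known. Per-library values are given for each called gene and for the 3 genes of each isoform class with the highest level per kb. Other lists name up to 3 called genes by smallest p, or, with no call, the 2 of highest level. Myot, Tnni2, Myog and the remaining genes were chosen after their values were seen.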

Additional observations from a re-analysis of the deposited data

How the results depend on the processing

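The count of 8 lower and 0 higher sarcomere genes was the same with DESeq2 size factors, library totals, the replicate block and Y-linked reads as a covariate. The DESeq2 Wald test gave 7 and 0 (slow genes 1 lower), and no filter on low counts gave 9 lower, 1 higher, with 2 embryonic, perinatal and cardiac-type genes lower and 1 shared gene higher. Leaving out each library gave 4 to 10 lower and 0 to 3 higher: embryonic, perinatal and cardiac-type 1 to 3 lower, slow 0 to 2 lower, fast 1 to 2 lower and 0 to 2 higher, shared 2 to 3 lower and 0 to 1 higher. Over all genes, 2980 calls became 1932 (793 higher) with the Y-linked covariate and 1576 to 4002 with a library left out (881 to 2238 lower, 655 to 1764 higher). With the replicate number as a block 2437 genes were called. Deviations of libraries with the same number had correlations of -0.063, 0.017 and -0.110. Such correlations cannot decide whether these libraries share more than a number. Signs turned for genes near 0: Mylpf ran from -0.28 to 0.46 with a library left out and was -0.0445 with the Y-linked covariate; Tpm3 ran from -0.0808 to 0.0868 and was -0.0030 with no filter. With a library left out, Mybph ran from -0.14 to 0.0727, Myom1 from -0.0996 to 0.14 and Myom3 from -0.15 to 0.37. The causes were not tested. At this depth the 9 genes under the filter had too few reads for the test.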

Other observations

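Called genes for building and clearing sarcomeres went both ways. Of 22 listed, 15 were tested, 4 were lower and 2 higher in homozygotes, against 11.5% lower and 9.67% higher over all genes tested. Of the 15, 11 were negative, with a median log2 fold change of -0.25. Trim63 encodes MuRF1, a ubiquitin ligase that targets myosin heavy chain. It stood at 8.95, 1.59 and 11.1 CPM in homozygous replicates 1, 2 and 3 and at 0.116, 0.318 and 0.254 CPM in wild type, from 164 reads against 5, and passed the filter through the homozygous libraries alone. Wild-type levels were near 0 and all homozygous libraries were higher, with replicate 2 the lowest of them. Hspb7, a small heat shock protein of muscle, was higher (1.47), and Cryab, the chaperone alpha-B crystallin, was lower (-0.63).

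Muscle fibre genes outside the sarcomere were also mostly lower where called: of 24 listed, 18 were tested, 8 were lower and 1 higher. The shares over all genes tested were 11.5% lower and 9.67% higher. Of the 18, 10 were negative, with a median of -0.496. Pygm, muscle glycogen phosphorylase, Casq1, which binds calcium in the sarcoplasmic reticulum, and Ryr1, its release channel, changed by -1.26, -1.73 and -1.85. Ckm, muscle creatine kinase, stood at 6.56 ± 0.356 CPM against 5.85 ± 0.762 CPM (mean ± SD, n = 3), a difference of 0.17 that did not pass the test. Car3, a carbonic anhydrase of slow fibres, was called higher (2.59), but the genotypes overlapped: 1.54, 12.5 and 22.9 CPM in homozygous replicates 1, 2 and 3, the first below every wild-type library, and 1.62, 2.86 and 1.78 CPM in wild type.

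Markers of other cells in the sort differed between genotypes as well, where 11.5% of all genes tested were called lower and 9.67% higher. Of 10 smooth muscle markers 3 were lower (Actg2 -0.81, Myl9 -0.78 and Myh11 -0.58), and of 7 pericyte markers 3 were higher (Pdgfrb 1.02, Abcc9 1.58 and Kcnj8 1.38). Of 8 fibro-adipogenic progenitor markers 4 were lower, led by Dpt (-1.97), Col3a1 (-2.47) and Lum (-1.83). The 1 called higher was Pdgfra (0.88). Of 6 erythroid markers 4 were lower, with summed levels of 217 to 884 CPM against 897 to 1595 CPM. Of 7 macrophage markers 6 were tested and Cd68 was higher (1.46), and of 7 endothelial markers, with Pecam1 and Cdh5 the most abundant, 0 were called by edgeR and 1 had an unadjusted p under 0.05, with summed levels of 382 to 629 CPM against 432 to 655 CPM.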
